A study of Mus musculus with 9 samples.

Results

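Alternative promoters are the separate places at which transcription of one gene can begin. The members described here were protein-coding genes on chromosomes 1 to 19 with annotated starts far apart. The starts of each gene's protein-coding transcripts (GENCODE release 21 of the mouse, build GRCm38) were joined into 1 start group when the next start lay within 2 kb, and a gene was a member when it had 2 or more groups and its outermost starts lay at least 20 kb apart. By this rule 2563 of 20722 genes (12.4%) were members, with 7282 of the 29523 start groups of all genes. The region of a start group reached 1 kb to either side of it. No measured value entered the rule.

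Chromatin was profiled in primary oviductal muscle cells of WT mice aged 8 to 12 weeks on Day 2 of pregnancy, the mice having been mated with a stud male. ChIC-Seq was used, in which an antibody carries the nuclease MNase to a histone mark and the released DNA is sequenced, from 50000 fixed cells per library after a few hours in culture. There were 3 libraries against H3K27ac, 3 against H3K4me1 and 3 with IgG, the last serving only as the controls of the peak calls. All groups shared genotype, day and cell type, so the only contrast was between the marks. The labels did not state whether the libraries came from separate animals, and the p-values below may measure technical spread.

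Acetylation of histone H3 at lysine 27 is found at active promoters and enhancers. Monomethylation at lysine 4 marks enhancers and the flanks of promoters, and is commonly low over the start of an active promoter, where trimethylation takes its place. Genes with distant promoters can give proteins with different amino ends or the same protein under different control. In smooth muscle, caldesmon, cGMP-dependent protein kinase 1 and myosin light chain kinase are known to be made in several forms, and Runx1 is a textbook gene with a distal and a proximal promoter.

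The 250 bases before the first start of a group are shown for pairs of far-apart start groups of 4 genes, because the marks differed between their starts or, in Cald1, stood at both. They are read 5′ to 3′ on the gene's strand (GRCm38), with every CG dinucleotide in capitals. Runx1 (minus strand) encodes a transcription factor of blood and connective tissue, and its distal window was chr16:92826150-92826399 and its proximal window chr16:92697329-92697578. Prkg1 (minus strand) encodes cGMP-dependent protein kinase 1, with windows at chr19:31765034-31765283 and chr19:31664371-31664620. Cald1 (plus strand) encodes caldesmon, which binds actin and restrains contraction, with windows at chr6:34598250-34598499 and chr6:34709192-34709441. Ltbp1 (plus strand) encodes a binding protein of latent TGF-beta, with windows at chr17:75005318-75005567 and chr17:75178560-75178809. None of these 8 windows held an annotated exon base.
Runx1 start group 1: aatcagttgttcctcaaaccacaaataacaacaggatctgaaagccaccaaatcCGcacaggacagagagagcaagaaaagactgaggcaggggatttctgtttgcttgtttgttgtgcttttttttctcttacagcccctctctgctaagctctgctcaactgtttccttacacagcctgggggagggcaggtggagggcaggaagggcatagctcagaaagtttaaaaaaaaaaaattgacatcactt
Runx1 start group 2: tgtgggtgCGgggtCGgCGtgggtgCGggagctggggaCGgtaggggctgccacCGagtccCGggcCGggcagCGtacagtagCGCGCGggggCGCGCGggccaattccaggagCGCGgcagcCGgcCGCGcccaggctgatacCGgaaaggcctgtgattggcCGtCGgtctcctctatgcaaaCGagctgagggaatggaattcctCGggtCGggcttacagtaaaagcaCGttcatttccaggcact
Prkg1 start group 1: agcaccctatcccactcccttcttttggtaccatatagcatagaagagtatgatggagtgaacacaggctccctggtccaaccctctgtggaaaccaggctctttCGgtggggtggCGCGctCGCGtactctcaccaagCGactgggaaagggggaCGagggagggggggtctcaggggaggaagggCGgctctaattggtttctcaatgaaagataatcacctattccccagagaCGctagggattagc
Prkg1 start group 2: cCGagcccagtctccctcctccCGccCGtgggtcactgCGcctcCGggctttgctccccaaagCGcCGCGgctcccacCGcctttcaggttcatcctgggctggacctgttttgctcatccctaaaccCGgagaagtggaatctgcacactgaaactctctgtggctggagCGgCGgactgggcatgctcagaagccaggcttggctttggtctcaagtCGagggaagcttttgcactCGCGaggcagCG
Cald1 start group 1: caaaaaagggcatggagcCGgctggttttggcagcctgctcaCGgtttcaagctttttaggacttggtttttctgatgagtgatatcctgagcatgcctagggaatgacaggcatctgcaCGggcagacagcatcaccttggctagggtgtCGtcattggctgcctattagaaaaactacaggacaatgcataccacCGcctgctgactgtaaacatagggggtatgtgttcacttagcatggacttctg
Cald1 start group 2: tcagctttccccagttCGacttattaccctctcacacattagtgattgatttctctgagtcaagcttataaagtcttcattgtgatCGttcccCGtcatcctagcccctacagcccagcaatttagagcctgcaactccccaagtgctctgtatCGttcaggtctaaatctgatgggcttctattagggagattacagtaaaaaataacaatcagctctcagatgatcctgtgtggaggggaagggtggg
Ltbp1 start group 1: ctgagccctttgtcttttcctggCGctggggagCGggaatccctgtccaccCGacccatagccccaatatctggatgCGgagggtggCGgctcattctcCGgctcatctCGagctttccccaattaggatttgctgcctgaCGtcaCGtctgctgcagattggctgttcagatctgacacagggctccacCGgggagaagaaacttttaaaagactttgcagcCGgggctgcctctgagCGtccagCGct
Ltbp1 start group 2: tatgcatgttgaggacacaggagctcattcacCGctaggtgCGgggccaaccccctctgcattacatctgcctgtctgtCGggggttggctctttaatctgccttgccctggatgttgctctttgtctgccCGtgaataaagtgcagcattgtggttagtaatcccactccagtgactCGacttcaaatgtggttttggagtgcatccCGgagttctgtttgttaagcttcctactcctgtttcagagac

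The Runx1 pair was the most unlike, with 1 CG in the distal window and 27 in the proximal one. The counts were 9 and 16 for Prkg1, 13 and 6 for Ltbp1, and 5 and 4 for Cald1. Of 3 motifs sought on both strands, TATAAA stood in the second Cald1 window alone, GGGCGG (the core of a GC box) stood once in each Prkg1 window, and the CArG box, the site of serum response factor, stood in none of the 8. Among the windows of all 29523 start groups, TATAAA stood in 12.9%, GGGCGG in 32.2% and the CArG box in 1.23%. Upstream groups of the members held GGGCGG in 51.4% of windows and downstream groups in 10.3%, while TATAAA stood in 6.71% and 15.7%. Many downstream groups rest on transcripts that the annotation tags as incomplete at the 5′ end, and without such transcripts the shares were 48.3% and 16.6% for GGGCGG and 6.95% and 15.4% for TATAAA. These are matches of letters and not sites shown to be bound.

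The 6 replicate peak lists came from 40551842 to 78891920 fragments, called against 3110985 to 3713369 IgG fragments, and held 93684 to 152889 peaks each. The calls were permissive, with p cut-offs of 0.05 and 0.1. Of the 678392 peaks in the 6 lists, 100657 had a −log10 p of at least 1.3 (p of about 0.05) as written. Replicate 1 of each mark had the most peaks of its mark. One IgG library served H3K27ac replicate 2 together with the first 2 H3K4me1 replicates, and another served replicate 3 of both marks. Of 8 smooth muscle marker genes, 5 had H3K27ac at a start in 2 or more lists (Acta2, Des, Smtn and Synpo2 in 3, Tagln in 2), whereas Myh11 had none and Cnn1 and Lmod1 had it in 1 list. None of 6 epithelial markers, 1 of 5 blood markers (Ptprc) and 2 of 4 endothelial markers (Cdh5 and Tek) did. For H3K4me1 the counts were 6 smooth muscle, 2 epithelial (Krt8 and Ovgp1), 0 blood and 2 endothelial markers (Tek and Kdr). A mark in a few cells and a weak mark in all cells cannot be told apart in these libraries.

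The members ranged from genes with 2 start groups (1321) to 1 gene with 12. The outermost starts lay 53.9 kb apart at the median, with quartiles of 30.7 and 107 kb and a largest distance of 2861 kb. Of the most upstream groups, 79.1% held the start of a transcript that the annotation ranks as principal. Of the internal groups 26.5% did, and of the most downstream groups 20.2%. A property of the annotation bears on all counts that follow. GENCODE tags some transcripts as having an incomplete 5′ end, so that their first base need not be a start. Of the 2563 most downstream groups, 1282 (50.0%) held tagged transcripts alone, against 579 of 2156 internal groups (26.9%) and 11 most upstream groups (0.429%). The main results are therefore given for the members by the rule and again for the 1568 genes, with 4223 start groups, that met the rule on complete 5′ ends alone. This second set was chosen after the data were seen.

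A start group was called marked when a peak of that mark overlapped its region in 2 or more of 3 replicate lists. The background given beside a share is the same share over all start groups or all genes with 2 or more of them, members included. H3K27ac marked 2844 member groups (39.1%), against 43.7% of all start groups, and H3K4me1 marked 2811 (38.6%) against 36.6%. With peaks of −log10 p of at least 1.3 alone, the counts were 1655 for H3K27ac (22.7%, background 31.6%), 852 for H3K4me1 (11.7%, background 10.6%) and 607 for both (8.34%, background 8.45%). Both marks stood at 2157 groups (29.6%, background 30.8%), H3K27ac alone at 687 (9.43%, background 12.9%) and H3K4me1 alone at 654 (8.98%, background 5.87%). All 3 lists agreed on H3K27ac at 2128 member groups (29.2%, background 35.5%) and on H3K4me1 at 1741 (23.9%, background 22.2%). No peak of either mark passed the rule at 3784 groups (52.0%, background 50.4%). Of the 367 groups whose region also held a start of another protein-coding gene, 294 (80.1%, background 86.5% of all such groups) had H3K27ac and 239 (65.1%, background 60.5%) H3K4me1. Among groups resting on incomplete ends alone, 15.2% had H3K27ac and 13.9% H3K4me1, compared with 47.3% and 47.1% of groups with a complete end.

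H3K27ac was most frequent at the most upstream start. It overlapped 63.1%, 61.6% and 59.9% of the most upstream groups in replicates 1 to 3, 36.4%, 34.2% and 32.5% of internal groups, and 28.0%, 25.4% and 22.8% of the most downstream groups. H3K4me1 overlapped 52.7%, 49.6% and 48.0% of upstream groups, 40.5%, 36.6% and 37.0% of internal groups and 28.1%, 25.3% and 24.0% of downstream groups. The 3 places did not overlap within either mark. The share upstream exceeded the share downstream by 36.1 ± 0.961 percentage points for H3K27ac (mean ± SD, n = 3) and by 24.3 ± 0.274 for H3K4me1, and by 30.2 points over the 6 lists, higher in 6 of 6 (exact sign-flip permutation test, two-sided, p = 0.03125, the smallest that 6 lists allow; adjusted p = 0.03125 over 5 tests). The 6 lists are not fully independent, since some share an IgG library. Genes whose groups lay within 20 kb also had a larger share upstream than downstream, by 24.8 ± 0.136 points for H3K27ac and 13.6 ± 0.941 for H3K4me1. The members' excess was larger than theirs by 11.4 ± 0.826 and 10.7 ± 1.12 points (6 of 6 lists, exact sign-flip p = 0.03125). On complete 5′ ends the near genes had 14.4 ± 0.0579 and 6.21 ± 0.803 points, and the members' excess was larger by 5.23 ± 0.352 for H3K27ac and by 0.789 ± 1.26 for H3K4me1, in 5 of 6 lists (exact sign-flip p = 0.0625). These comparisons with near genes were added after the data were seen.

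Counted on complete ends, the differences between places were smaller, and the H3K4me1 lists of upstream and internal groups overlapped. H3K27ac overlapped 54.7% ± 1.77 of upstream, 39.3% ± 1.80 of internal and 35.0% ± 2.04 of downstream groups (SD, n = 3), against 47.0% of all start groups with a complete end by the rule of 2 or more lists. H3K4me1 overlapped 46.1% ± 2.09, 45.7% ± 2.49 and 39.1% ± 1.68 (39.1% of all such start groups by that rule). Upstream minus downstream then came to 19.7 ± 0.315 points for H3K27ac and 6.99 ± 0.470 for H3K4me1, 13.3 points over the 6 lists (exact sign-flip p = 0.03125). Upstream minus internal was 15.4 ± 0.129 for H3K27ac, while for H3K4me1 its 3 values were -0.0127, 1.77 and -0.443, and over the 6 lists the difference no longer passed (7.93 points, exact sign-flip p = 0.125).

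**Figure D1:**
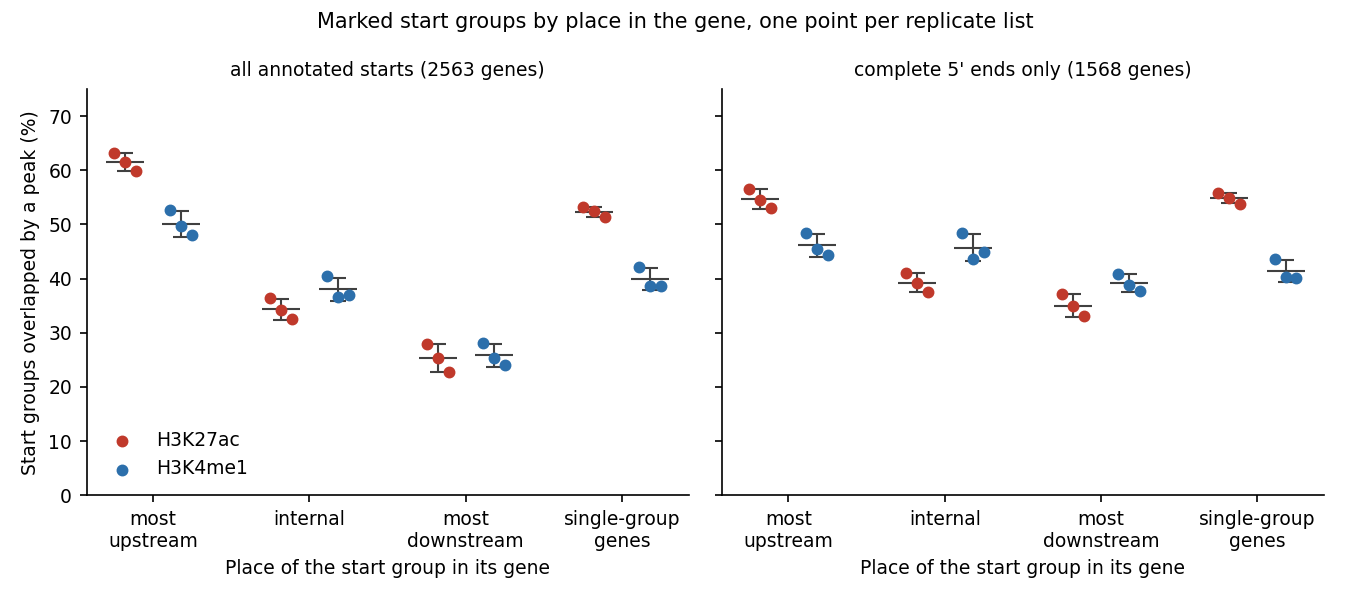
Share of start groups overlapped by a peak (%) by their place in the gene, with 1 point for each replicate list and the mean and SD of 3 lists as bars. The left panel has the members by all annotated starts, where upstream groups reach 59.9 to 63.1% for H3K27ac; in the right panel, on complete 5′ ends, the H3K4me1 lists of upstream and internal groups lie in one range.

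With all peaks of the lists, the marks changed order between places. At the most upstream starts every H3K27ac list lay above every H3K4me1 list, and at internal starts every H3K27ac list (32.5 to 36.4%) lay below every H3K4me1 list (36.6 to 40.5%). The upstream minus internal difference was larger for H3K27ac by 15.1 percentage points (exact permutation test of 3 against 3 lists, two-sided, p = 0.1, the smallest that this design allows; adjusted p = 0.175 over 7 tests). The upstream minus downstream difference was larger by 11.8 points (exact permutation p = 0.1). On complete 5′ ends the same differences were 15.0 and 12.7 points (exact permutation p = 0.1 each). Their size depended on the definition of peak and region, at 7.99 and 3.95 points with 2 kb flanks, 23.4 and 20.98 with 500 bp flanks, and 25.5 and 25.6 at −log10 p of at least 1.3. At this last cut-off the mean H3K27ac share at internal starts was no longer below that of H3K4me1. Over all member groups the lists of the marks overlapped, with 40.8% ± 2.07 for H3K27ac and 38.0% ± 2.16 for H3K4me1 (exact permutation p = 0.2; adjusted p = 0.28). That difference of 2.78 points depended on the peak and region definition: it was 9.62 points at −log10 p of at least 1.3, 6.82 with 500 bp flanks and 4.21 with at least 200 bp of peak in the region (exact permutation p = 0.1 each, the smallest possible), and it was -0.206 with 2 kb flanks.

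The marks also differed in where their peaks lay around a start. Among complete 5′ ends, an H3K27ac peak covered the first start itself in 36.1% ± 2.47 of the most upstream groups (SD, n = 3) and an H3K4me1 peak in 14.7% ± 3.02. At 2 kb downstream the order was the other way, with 23.3% ± 1.64 for H3K27ac and 27% ± 1.02 for H3K4me1. At internal starts the dip was missing, with 22% ± 1.78 for H3K27ac and 22.6% ± 1.67 for H3K4me1 at the start. The most downstream starts had 19.4% ± 0.820 and 19.2% ± 0.593. At 10 kb into the gene from downstream starts the cover was 7.23% ± 0.929 and 10.5% ± 0.542, lower than at the start for both marks.

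**Figure D2:**
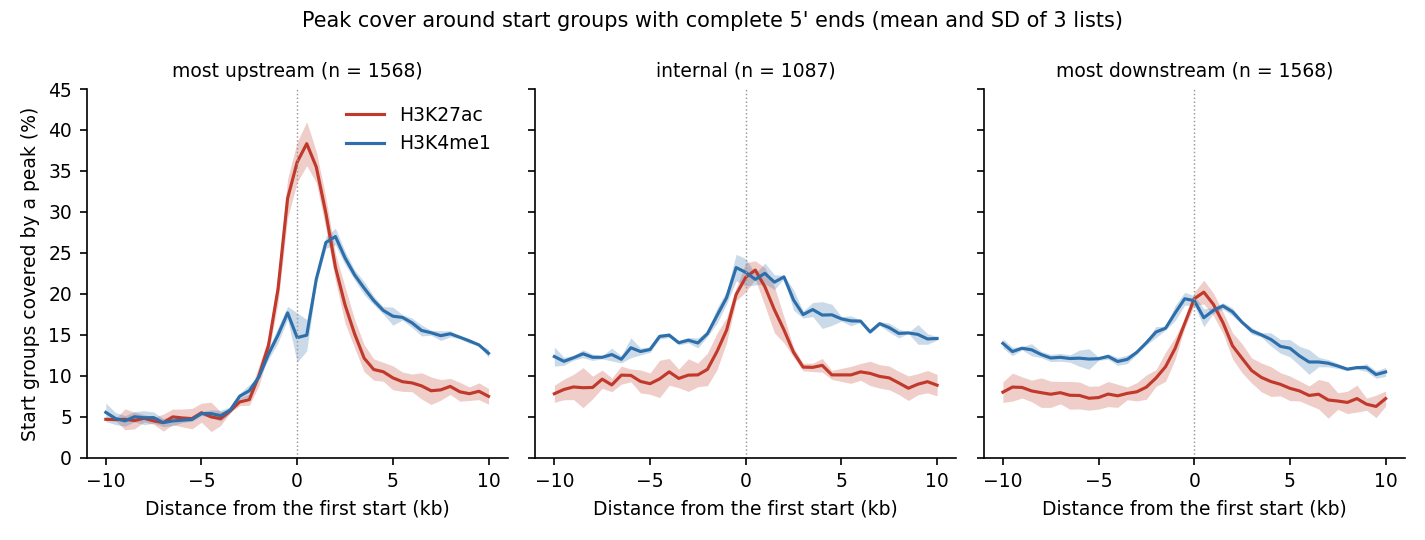
Share of start groups covered by a peak (%) at each distance from the first start of the group (kb, positive into the gene), for groups with complete 5′ ends, with lines for the mean and bands for the SD of 3 lists. H3K4me1 dips at the most upstream starts (14.7%) and rises to 27% at 2 kb, and has no such dip at internal starts.

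Upstream peaks were also higher for H3K27ac. In the members by the rule, the median peak over an upstream group stood at 10.6, 11.1 and 11.8 times the mean coverage of the genome in replicates 1 to 3, over an internal group at 8.44, 8.93 and 8.37 times, and over a downstream group at 5.85, 6.64 and 6.98 times. H3K4me1 peaks differed less, at 8.18 to 8.55 times upstream, 8.32 to 8.64 times internally and 7.29 to 8.02 times downstream. With complete 5′ ends, H3K27ac stood at 10.4, 10.7 and 11.5 times upstream, 9.27, 9.33 and 9.90 times internally and 8.76, 9.33 and 8.85 times downstream, and H3K4me1 was highest internally (8.99 to 9.48 times). A single peak rarely joined neighbours: of 765 to 971 pairs of neighbouring groups that were both marked in a list, 35 to 49 (4.02 to 5.92%) lay under the same peak.

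CpG content ran along with place. The observed over expected ratio of CG dinucleotides in the region had a median of 0.597 at the most upstream, 0.248 at internal and 0.239 at the most downstream groups, and 1272, 185 and 110 of them reached 0.6 and are called CpG-rich here. With complete 5′ ends, H3K27ac overlapped 78.4% ± 1.63 of CpG-rich upstream groups (n = 696 groups, SD over 3 lists), 73.7% ± 0.451 of CpG-rich internal groups (128) and 75.2% ± 1.302 of CpG-rich downstream groups (133). In CpG-poor groups the shares were 35.8% ± 2.02 upstream, 34.7% ± 1.98 internally and 31.3% ± 2.23 downstream, with overlapping lists between neighbouring places. In both classes every upstream H3K27ac list lay above every downstream list, by smaller amounts than the 19.7 points of the whole set. H3K4me1 in CpG-poor groups was at 35.2% ± 2.74 upstream, 43.5% ± 2.76 internally and 37.4% ± 1.82 downstream, and in CpG-rich groups between 57.6% and 62.0%. The part of CpG content in the difference between places was not tested. By all annotated starts, marked and unmarked regions differed in median CpG ratio by 0.295 ± 0.0167 for H3K27ac and by 0.180 ± 0.0119 for H3K4me1, with every H3K27ac list above every H3K4me1 list (exact permutation p = 0.1, adjusted p = 0.175). The gaps on complete ends were 0.265 ± 0.0152 and 0.126 ± 0.0102 (exact permutation p = 0.1).

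**Figure D3:**
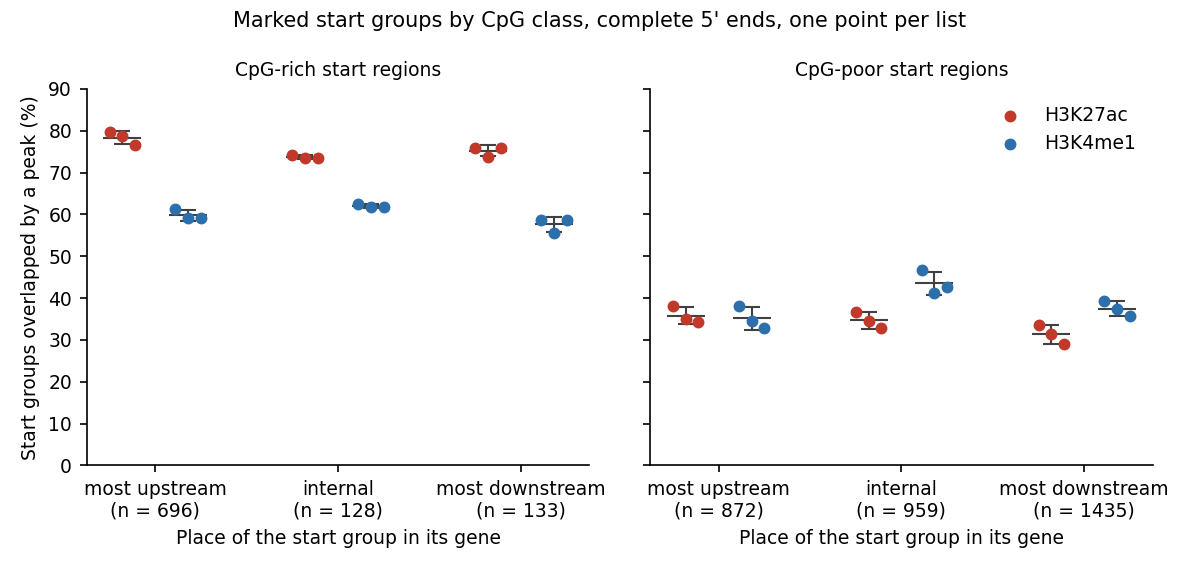
Share of start groups overlapped by a peak (%) in CpG-rich and CpG-poor start regions with complete 5′ ends, by place in the gene, with 1 point for each replicate list and the mean and SD of 3 lists as bars. H3K27ac is at 73.4 to 79.7% in each place of the CpG-rich class and at 29.1 to 38.1% in each place of the CpG-poor class.

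Start groups of members were marked less often by H3K27ac than those of the 14494 genes with 1 start group, by 11.5 ± 1.18 points (SD, n = 3). For H3K4me1 they were lower by 1.88 ± 0.463 points (6 of 6 lists over both marks, exact sign-flip p = 0.03125, adjusted p = 0.03125). On complete 5′ ends H3K27ac was lower in 3 of 3 lists, by 10.4 to 12.2 points. H3K4me1 was higher at member groups in 3 of 3 lists, by 1.91 to 2.27 points, and the mean over the 6 lists no longer passed (exact sign-flip p = 0.25). Counted per gene by all annotated starts, the order was the other way. A peak stood at 1 or more groups in 74.2% ± 1.63 of members for H3K27ac and 67.2% ± 2.59 for H3K4me1. Genes with 1 group were at 52.3% ± 0.902 and 39.9% ± 2.02. Members have 2 or more groups at which a peak can stand. The most upstream groups of members exceeded the single groups by 9.22 points for H3K27ac and 10.2 for H3K4me1 (higher in 6 of 6 lists, exact sign-flip p = 0.03125). Among complete 5′ ends, that difference was -0.132 ± 0.838 for H3K27ac and 4.76 ± 0.429 for H3K4me1 (exact sign-flip over 6 lists, p = 0.156). Against the start groups of the 3665 genes whose 2 or more groups lay within 20 kb, those of members were marked more often, by 7.09 ± 0.516 points for H3K27ac and 10.1 ± 0.471 for H3K4me1 (higher in 6 of 6 lists, 8.60 points over the 6 lists, exact sign-flip p = 0.03125, adjusted p = 0.03125). With complete ends these were 11.3 ± 0.608 and 15.5 ± 0.361 points against 2992 such genes (higher in 6 of 6 lists, exact sign-flip p = 0.03125).

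Most members carried H3K27ac at a part of their starts. No start group was marked in 697 genes (27.2%, background 39.7%), 1 group in 1135 (44.3%, background 39.5%) and 2 or more in 731 (28.5%, background 20.9%). Some but not all groups were marked in 1535 genes (59.9%, background 47.2%), and all groups in 331 (12.9%, background 13.2%). For H3K4me1, 971 genes had 1 marked group (37.9%, background 32.9%), 314 had all groups marked (12.3%, background 12.4%), 760 genes had 2 or more marked groups (29.7%, background 20.8%) and 1417 had some but not all (55.3%, background 41.2%). With complete 5′ ends, the genes with 2 or more H3K27ac groups were 505 of 1568 (32.2%, background 22.2%) and those with some but not all 847 (54.0%, background 38.6%). H3K27ac stood at 1 group in 610 (38.9%, background 32.4%) and at all groups in 268 (17.1%, background 16.0%). For H3K4me1 they were 564 (36.0%, background 23.0%) and 788 (50.3%, background 35.2%), with 1 group in 520 (33.2%, background 28.0%) and all groups in 296 (18.9%, background 15.9%). In a stricter reading, 993 members (38.7%) had H3K27ac in 3 of 3 lists at one group and in 0 of 3 at another, against 29.8% of all genes with 2 or more groups, and 765 (29.8%) did so for H3K4me1, against 20.2%. On complete ends the counts were 489 (31.2%, background 22.2%) and 368 (23.5%, background 15.3%). Members have more start groups per gene, with 7282 in 2563 genes against 7747 in the 3665 genes whose groups lay within 20 kb. Counts such as 2 or more marked groups, or some but not all, can rise with that number alone. Its part in the excess over background was not tested.

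In genes with exactly 2 start groups, H3K27ac at 1 of them was mostly at the upstream one. Of 1321 such members, 596 (45.1%, background 34.4% of all genes with 2 groups) had H3K27ac at the upstream group alone, 72 (5.45%, background 5.63%) at the downstream group alone and 241 (18.2%, background 15.2%) at both. H3K4me1 stood at the upstream group alone in 474 genes (35.9%, background 25.1%), at the downstream group alone in 120 (9.08%, background 8.12%) and at both in 224 (17.0%, background 14.3%). Among the 888 such genes with complete 5′ ends, H3K27ac was upstream alone in 304 (34.2%, background 24.5%), downstream alone in 81 (9.12%, background 7.83%) and at both in 214 (24.1%, background 17.9%). H3K4me1 was upstream alone in 218 (24.5%, background 17.9%), downstream alone in 129 (14.5%, background 10.7%) and at both in 215 (24.2%, background 17.0%). In genes with exactly 1 marked group in a list, that group was the most upstream one in 77.9 to 79.1% of genes for H3K27ac and 67.3 to 68.4% for H3K4me1, so that some agreement between lists follows from place alone. Where both lists had exactly 1 marked group in a gene, it was the same group in 95.3 to 96.0% of genes for pairs of H3K27ac lists. For H3K4me1 it was 96.4% for replicates 1 and 2, which share an IgG library, and 86.5 and 88.3% for the pairs with replicate 3. Between marks it was 91.0, 91.6 and 92.8% for lists with a shared IgG library and 85.5 to 87.2% for the others. The part of the control library in this agreement was not tested.

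**Figure D4:**
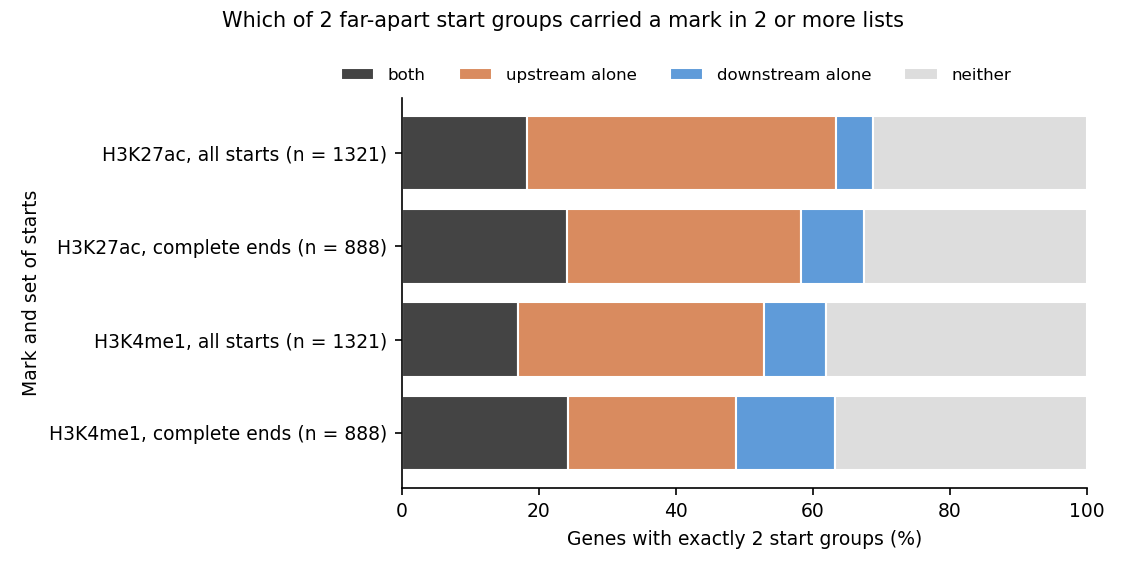
Genes with exactly 2 far-apart start groups (%), split by which group carried the mark in 2 or more of 3 lists, for all annotated starts and for complete 5′ ends. H3K27ac at the upstream group alone is the largest class by all starts (45.1%) and falls to 34.2% on complete ends, and the downstream group alone is the smallest class in each bar.

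H3K27ac at upstream and internal starts had its lowest mean in the genes of widest span. On complete 5′ ends the upstream group was marked in 57% ± 2.12 of 740 genes with spans of 20 to 50 kb (SD, n = 3 lists), 58.9% ± 0.655 of 404 genes at 50 to 100 kb, 52.7% ± 1.89 of 243 genes at 100 to 200 kb and 38.5% ± 3.51 of 181 genes above 200 kb. Internal groups were at 43.9% ± 2.55, 37.6% ± 2.13, 38.8% ± 2.62 and 35.7% ± 1.10 in the same order. Their lists above 200 kb lay apart from those at 20 to 50 kb alone. The downstream group stayed between 34.4% and 36.5% in the 4 classes. Above 200 kb the 3 places of H3K27ac lay close together, at 38.5%, 35.7% and 35.0%. The median CpG ratio of the upstream groups was 0.534, 0.590, 0.589 and 0.560 from the shortest to the longest class. H3K4me1 upstream was 46.2% ± 2.68, 49.3% ± 2.2, 43.9% ± 1.26 and 42.0% ± 4.72 in the same order, and the lists above 200 kb (37.0 to 46.4%) overlapped those at 20 to 50 kb (44.1 to 49.2%) and at 100 to 200 kb (42.8 to 45.3%) and lay below those at 50 to 100 kb (46.8 to 51.0%). No test was made of these classes.

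The genes named from here on are described by the lists that marked each start group and by peak height, the coverage under the peak divided by the mean coverage of the genome in that list. Runx1 carried both marks at its proximal start, 129 kb downstream of the distal one. H3K27ac stood there at 14.2, 14.2 and 14.2 times the genome mean and H3K4me1 at 11.9, 9.70 and 9.43 times. The distal start had an H3K27ac peak in replicate 1 alone, at 8.85 times, and an H3K4me1 peak in replicate 1 alone, at 10.65 times. The pooled H3K27ac call had a peak at the distal start too. The start marked in 2 or more replicate lists was the one with 27 CG dinucleotides in its window.

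Genes of contraction had several patterns. In Cald1 both of the first 2 groups, 111 kb apart, were marked in all lists, with H3K27ac at 13.4, 11.7 and 14.1 times the mean at the first and 16.3, 13.2 and 14.6 times at the second. These 2 windows had few CG dinucleotides and both regions were CpG-poor. The last Cald1 group, 147 kb from the first, rested on transcripts with incomplete ends, followed 250 bases of annotated exon and had no peak in any list. Prkg1, spanning 1191 kb, had H3K27ac at its second group in replicates 1 and 3 (4.41 and 6.30 times) and H3K4me1 there in 3 of 3 lists. Its first group had H3K27ac in replicate 2 alone (7.55 times) and H3K4me1 in replicates 2 and 3 (6.17 and 5.73 times), and its last group had no peak. The pooled H3K27ac call went the other way, with a peak at the first Prkg1 group and none at the second. Mylk, for myosin light chain kinase, had no start group that passed for H3K27ac: a peak stood in replicate 2 alone at the first (6.09 times), and H3K4me1 stood at the second, 210 kb away, in replicates 2 and 3 (11.2 and 10.6 times).

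Some genes of the contractile and cytoskeletal list were marked at internal starts. H3K27ac stood at the most upstream group in 11 of its members and at the most downstream group in 6. Of 37 contractile and cytoskeletal genes listed, 20 were members, with 94 start groups, of which 43 (45.7%) had H3K27ac and 51 (54.3%) H3K4me1, against 43.7% and 36.6% of all start groups. Of the 67 groups holding a complete end, 40 (59.7%) had H3K27ac and 45 (67.2%) H3K4me1. Such groups of all members were at 47.3% and 47.1%, and all start groups rebuilt on complete ends at 47.0% and 39.1%. Tns1, for the adhesion protein tensin 1, had no H3K27ac at its most upstream group and had it in 3 of 3 lists at groups 3, 4 and 7 of 9, of which groups 3 and 7 had complete ends. At group 3 H3K27ac was at 10.2, 11.5 and 11.8 times the mean, and at group 7 at 11.2, 11.8 and 12.6 times. Macf1, a linker of microtubules and actin, had 3 of 11 groups with both marks in all lists (groups 2, 4 and 7, at 19.6, 157 and 272 kb). Svil, for supervillin, had H3K27ac in 3 of 3 lists at the most upstream group. Sorbs2, an adaptor at focal adhesions, had H3K4me1 in 3 of 3 lists and H3K27ac in none at its first group, and had H3K27ac in 3 of 3 at the second, 120 kb on. Dst, another linker, had H3K27ac in 3 of 3 lists at groups 3 and 5 of 7, and in 2 lists at groups 1 and 2. Ank2, for an ankyrin, had it at the fifth of 8.

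Cyclic nucleotide, calcium and ion signaling had 26 members of 34 listed, with 105 groups, of which 37 (35.2%) had H3K27ac and 42 (40%) H3K4me1, against 43.7% and 36.6% of all start groups. Of the 80 groups holding a complete end, 27 (33.8%) and 35 (43.8%) did. Such groups of all members were at 47.3% and 47.1%, and all start groups rebuilt on complete ends at 47.0% and 39.1%. Pde4d, a cAMP phosphodiesterase known for its many promoters, had 11 groups over 1281 kb. H3K27ac stood in 3 of 3 lists at groups 4, 5, 8, 9 and 10, and of these group 4 had no complete end. The highest was group 8, 1032 kb from the first, at 11.6, 9.78 and 11.2 times the mean. Its 3 most upstream groups had H3K27ac in 1, 1 and 0 lists. Its relative Pde4b had no H3K27ac peak at the most upstream group, and had H3K27ac at 13.7, 15.8 and 15.7 times at group 5, 483 kb downstream. Cacna1c, the pore subunit of the L-type calcium channel, had H3K27ac at 1 of 5 groups, the second, at 10.6, 15.1 and 17.2 times, and no peak of either mark at the last 3 in the replicate lists, although the pooled H3K4me1 call had a peak at the third. Pde10a had H3K27ac at its second of 6 groups alone (10.4, 10.6 and 11.6 times) without H3K4me1 there. Pde1c, Rgs3 and Pde9a had H3K27ac in 3 of 3 lists at a group other than the first, which in Rgs3 had no complete end, and Atp2b1, a calcium pump, at its first.

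Transcription factors and cofactors had the highest share of marked groups among the 5 lists by all annotated starts, 58 of 98 (59.2%) for H3K27ac and 61 (62.2%) for H3K4me1, in 29 members of 45 listed, against 43.7% and 36.6% of all start groups. Of the 89 groups holding a complete end, 53 (59.6%) and 57 (64%) were marked, and contractile genes were higher, at 59.7% and 67.2%. Such groups of all members were at 47.3% and 47.1%, and all start groups rebuilt on complete ends at 47.0% and 39.1%. Foxp1 had H3K27ac in 3 of 3 lists at 3 of its 8 groups (1, 6 and 8), the last 492 kb from the first. Mef2c, a factor of muscle genes, had none at its first group and H3K27ac in 3 of 3 at groups 2, 3 and 4, where groups 2 and 3 lay under the same peaks. Nfib had H3K27ac at its second group alone, 200 kb downstream and CpG-rich, at 6.08, 7.38 and 9.04 times the mean, and H3K4me1 at neither in the replicate lists, although the pooled H3K4me1 call had a peak at the second. Thrb, Mitf, Tcf7l2 and Klf12 had H3K27ac in 3 of 3 lists at the most upstream group, and in 0 of 3 at their last. Creb5 had it in 3 of 3 at both its first and last group, 286 kb apart. Pparg, the receptor of fat cell differentiation, had H3K27ac in 3 of 3 lists at its first group (4.75, 8.80 and 7.03 times), in 2 at the second and in none at the third, 61.1 kb downstream, where H3K4me1 was missing too.

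Matrix genes were fewer, with 12 members of 30 listed and 33 groups, of which 15 (45.5%) had H3K27ac and 14 (42.4%) H3K4me1, against 43.7% and 36.6% of all start groups. Of the 22 groups holding a complete end, 13 (59.1%) and 12 (54.5%) did. Such groups of all members were at 47.3% and 47.1%, and all start groups rebuilt on complete ends at 47.0% and 39.1%. Col18a1, for the basement membrane collagen that yields endostatin, had H3K27ac in replicates 2 and 3 at its first group (10.2 and 10.4 times) with no H3K4me1 there. At its second group, 52.6 kb on, both marks stood in 3 of 3 lists (H3K27ac 10.8, 9.47 and 12.1 times; H3K4me1 11.8, 13.1 and 12.8 times). Ltbp1 had H3K27ac in 3 of 3 at its first, CpG-rich group (6.19, 10.8 and 8.49 times) with H3K4me1 in 1 list. Its second, CpG-poor group, 173 kb on, had H3K27ac in 2 lists (10.7 and 9.36 times) and H3K4me1 in 3 (12.9, 10.6 and 13.1 times). Col5a1, a fibrillar collagen, had H3K27ac at 17.4, 17.6 and 15.2 times at its upstream group and none at a second group with no complete end.

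Genes known from neurons and epithelium were marked least of the 5 lists: 15 of 84 groups (17.9%) had H3K27ac and 20 (23.8%) H3K4me1, in 18 members of 28 listed, and 10 of the 18 had no H3K27ac group, as did 27.2% of all members and 39.7% of all genes with 2 or more groups. All start groups were at 43.7% and 36.6%. Of the 67 groups of this list holding a complete end, 13 (19.4%) had H3K27ac and 20 (29.9%) H3K4me1. Such groups of all members were at 47.3% and 47.1%, and all start groups rebuilt on complete ends at 47.0% and 39.1%. Nrxn2, a synaptic adhesion gene, had no peak of either mark at its 3 groups. Cadps2, Dab1 and Grhl2 had at most 1 list of either mark with a peak at any group. Dlg2, a synaptic scaffold gene, had H3K27ac in 3 of 3 lists at the first of 4 groups (7.98, 10.8 and 11.1 times) and Rims2 at the last of 4 (4.29, 4.80 and 5.07 times). Ptprd, Ank3 and Map2 had H3K27ac in 3 of 3 lists at the second, the sixth and the second group in turn.

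**Figure D5:**
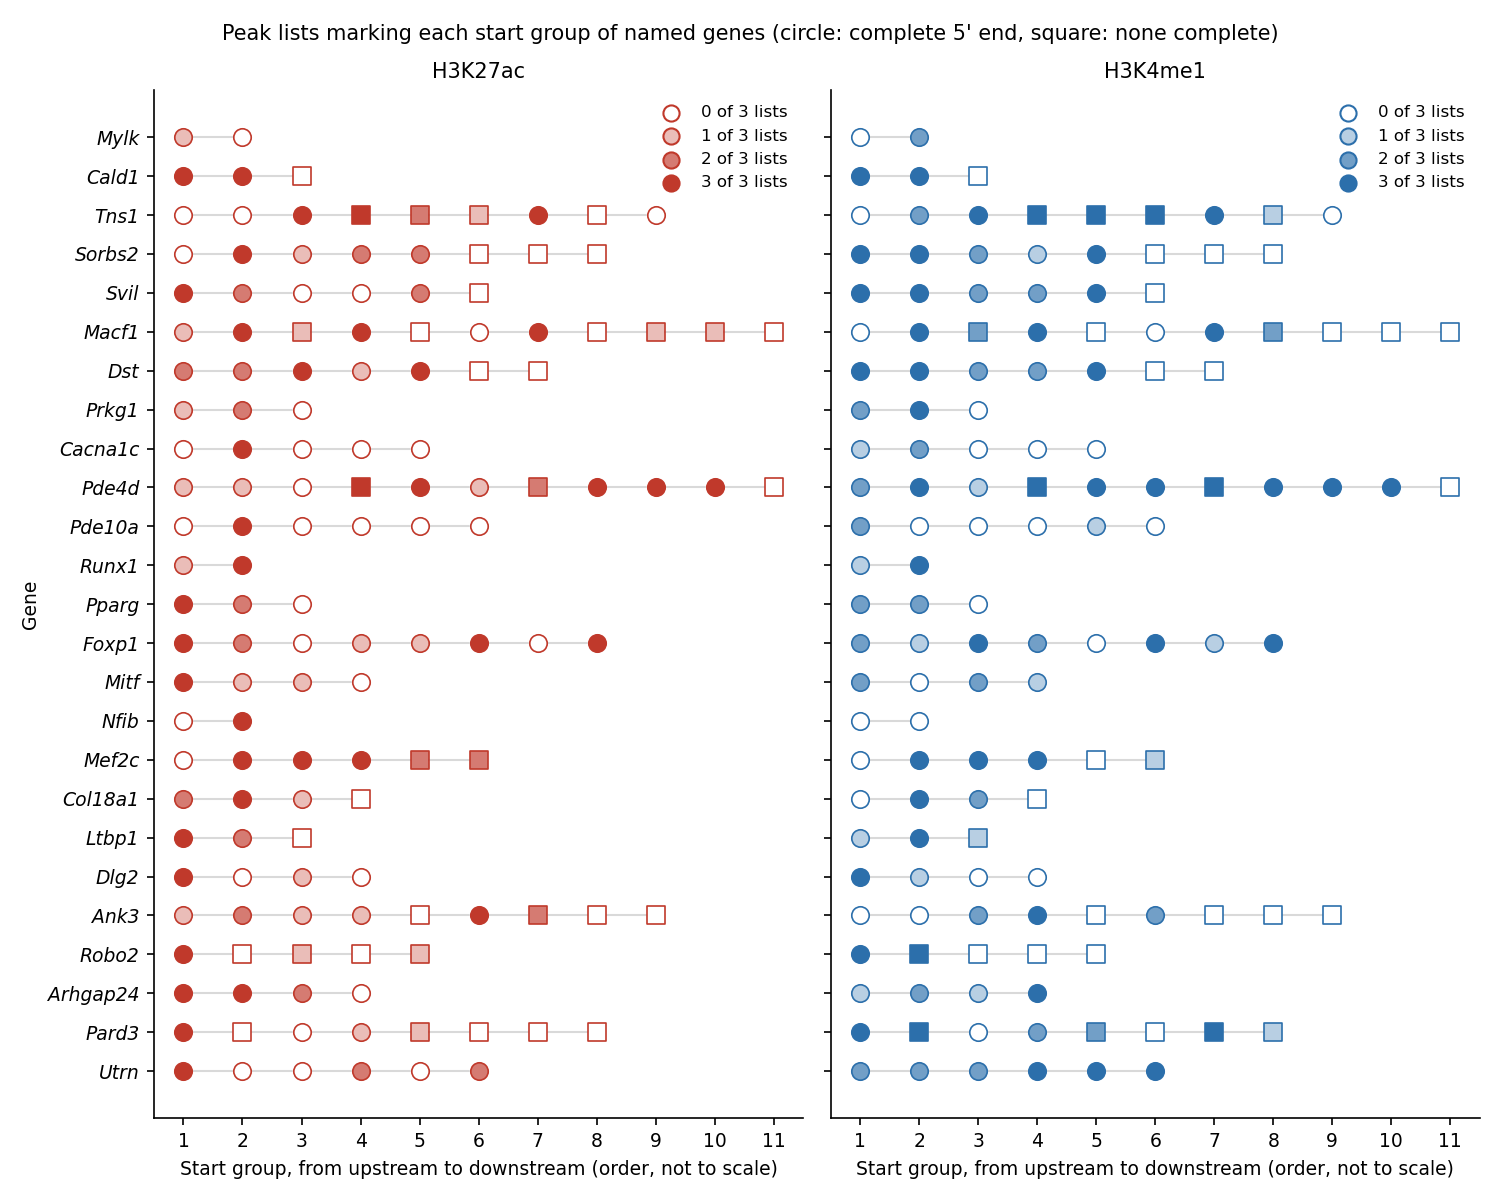
Start groups of a selection of the named genes from upstream to downstream (order on the horizontal axis, not to scale), shaded by the number of 3 replicate lists with an H3K27ac (left) or H3K4me1 (right) peak. Circles are groups with a complete 5′ end and squares groups without one, and the last groups of Cald1, Sorbs2, Dst and Macf1 are unmarked squares.

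The most start groups with H3K27ac were in Tcf4 and Zbtb20, both with H3K27ac in 3 of 3 lists at 7 of 7 groups. Zbtb20, for a zinc finger repressor, spanned 603 kb with heights of 5.36 to 11.9 times the mean, and its last 3 groups lay under the same H3K27ac peaks. Tcf4, for a basic helix-loop-helix factor, spanned 269 kb, and groups 5 and 6 shared their H3K27ac peaks. Cep170, a centrosomal protein, and Pnpla8, a phospholipase, had 6 of 6 groups marked, of which 3 and 2 had no complete end, and the first 2 Cep170 groups shared peaks. H3K27ac in 3 of 3 lists at the most upstream group and 0 of 3 elsewhere was found in 485 genes (18.9%, background 18.5%). By peak rank these were led by Setd1b, Dnajb6, Dcaf8, Tnrc18 and Cpne1, at 12.9 to 26.4 times the mean, and their last groups had no complete end. The converse, the most downstream group alone, was found in 53 genes (2.07%, background 2.5%). Dusp10, a phosphatase of stress kinases (15.7, 17.8 and 19.4 times), Txnrd1, thioredoxin reductase 1 (17.5, 17.6 and 18.9 times), Atad1, Amotl1 and Gpam led these, and both of their groups had complete ends. Among complete 5′ ends, the counts were 193 (12.3%, background 12.0%) and 58 of 1568 genes (3.70%, background 3.84%). For H3K4me1 the upstream group alone was found in 310 genes (12.1%, background 10.1%) and the downstream group alone in 47 (1.83%, background 2.26%), and on complete ends in 110 (7.02%, background 6.43%) and 46 (2.93%, background 3.18%). These shares were near those of all genes with 2 or more groups.

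H3K4me1 without H3K27ac at one start and H3K27ac at another was found in 387 members (15.1%, background 9.89%). On complete ends there were 290 of 1568 genes (18.5%, background 10.7%). The split was full in 63 members (2.46%, background 1.41%; on complete ends 53, 3.38%, background 1.73%), with H3K4me1 in 3 of 3 and H3K27ac in 0 of 3 lists at one group and H3K27ac in 3 of 3 at another. Arhgap24, a GTPase-activating protein of Rac, had H3K4me1 alone at its last group, 364 kb from the first (12.3, 9.48 and 11.3 times the mean), and H3K27ac at its first 3. Utrn, for the dystrophin relative utrophin, had H3K27ac in 3 of 3 lists at its first group (12.2, 14.7 and 16.7 times) and H3K4me1 alone at group 5, 254 kb downstream (6.77, 5.81 and 8.64 times). Foxp1 had H3K4me1 alone at group 3, 255 kb from the first (9.71, 8.90 and 10.6 times), in the replicate lists, while the pooled H3K27ac call had a peak there. In Robo2 and Pard3, genes of axon guidance and cell polarity, the groups with H3K4me1 in 3 of 3 lists and H3K27ac in 0 of 3 had no complete end. Members have more start groups per gene than the background, and the part of that number in the shares of this paragraph was not tested.

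At the edge of the rule, the genes just inside 20 kb were Mas1, with no marked group, and Elovl6 and Dctn1, with H3K27ac in 3 of 3 lists at the first group and none elsewhere. Just outside were Rasa4, marked at its first group, Asb8, marked at its second, and Oc90, with no mark.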

How the data were processed

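ChIC-Seq libraries were made from primary oviductal muscle cells, 3 each for H3K27ac, H3K4me1 and IgG. Per the submitters' processing notes reads were handled with cutadapt, Bowtie2 and MACS2 on GRCm38.p5. Per the file headers, MACS 2.2.7.1 called broad peaks in each library against an IgG library, and once per mark on pooled libraries, at p cut-offs of 0.05 and 0.1, with the larger library scaled to the smaller. The deposited files give each peak's pileup, a coverage signal, its fold enrichment over control as a ratio, and its −log10 p-value and −log10 q-value as the authors' caller wrote them. The file headers state that q was not calculated although the column holds values.

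Start groups were built from GENCODE release 21, overlapped with the peaks by 1 base or more (Python 3.11.15, pandas 2.3.3) and called marked in 2 or more of 3 lists. Sequence came from the RefSeq copy of the GRCm38 genome. Overlap and grouping code was tested on simulated data. Marks were compared over 3 against 3 lists by exact permutation tests and places over 6 lists by exact sign-flip tests, two-sided, with Benjamini-Hochberg adjustment. Peak lists hold no reads per region, so no interval from counts was given and shares carry the spread between lists. The members and gene lists were chosen with earlier results of these data known. Genes were named by fixed rules: members of each list with H3K27ac in 3 of 3 lists at one start group and 0 of 3 at another (up to 8 of largest span), 8 genes named in any case where they were members, up to 4 unmarked genes of neurons and epithelium, 5 genes for each extreme pattern, and 3 genes on either side of the 20 kb threshold. Some genes that met these rules are not reported here.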

Additional observations from a re-analysis of the deposited data

Results flagged for a closer look

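The difference between upstream and internal start groups was larger for H3K27ac than for H3K4me1 by 15.1 percentage points, with the 3 lists of either mark not overlapping (exact permutation test, p = 0.1, the smallest for 3 against 3 lists). On complete 5′ ends it was 15.0 points. It was 7.99 points with 2 kb flanks, 23.4 with 500 bp flanks and 25.5 at −log10 p of at least 1.3.

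The pooled peak calls entered no comparison. They marked 68 member start groups with H3K27ac (0.934%, against 1.01% of all start groups) and 294 with H3K4me1 (4.04%, against 4.82%) at which no replicate list of that mark had a peak. Over all member groups they marked 2922 with H3K27ac (40.1%, against 46.2%) and 3456 with H3K4me1 (47.5%, against 48.5%). The pooled calls have no replicates.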

How the results depend on the processing

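Each choice was changed alone. The differences between marks in upstream minus downstream share (3.95 to 25.6 points over 14 alternatives), upstream minus internal share (7.99 to 25.5), CpG gap (0.0346 to 0.222) and members minus single-start genes (-15.9 to -7.57) kept their direction. The small differences between marks did not. The share of marked groups reversed with 2 kb flanks (-0.206 points) and with peaks of at least 5 times mean coverage (-0.0732), the share of genes with 2 or more marked groups with GENCODE basic transcripts (-0.683), such peaks (-2.37) and complete 5′ ends (-0.680, an alternative chosen after seeing the data), and the share of genes with exactly 1 marked group among genes with any marked group, with 500 bp flanks (-0.520). Over 6 lists, members minus single-start genes no longer passed when starts were merged within 5 kb (-4.76), on basic transcripts (-5.07) or on complete ends (-4.68), nor did upstream minus internal on complete ends (7.93). Without 1 list, these ranged from -7.76 to -5.53, and upstream minus internal from 18.1 to 21.3 and upstream minus downstream from 28.8 to 31.4, at p = 0.0625, the smallest that 5 lists allow (exact permutation).

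Counts of groups with H3K27ac, H3K4me1 and both, and of genes with H3K27ac at some but not all groups, were 1317, 1369, 1022 and 655 on basic transcripts, 1769, 1873, 1390 and 847 on complete ends, and 1611, 1663, 1232 and 825 for spans of at least 50 kb. The first 3 were 1655, 852 and 607 at −log10 p of at least 1.3. Requiring 3 of 3 lists left 1741 groups with H3K4me1 and 1253 with both. At −log10 q of at least 5, 51 of 678392 peaks remained and none met a member group, so no value was had. The cause of these changes, other than fewer groups or peaks, was not tested.

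With the replicate number as a block, upstream minus downstream differed between marks by the same 11.8 points (exact permutation p = 0.25, the smallest for 3 pairs). Deviations of same-numbered lists correlated at 0.000213, 0.142 and 0.256, so the numbers were not taken as pairs. Lists of the 2 marks sharing an IgG library correlated at 0.156, 0.142 and 0.256, and the other pairs at -0.242 to 0.0155. The permutation of 3 against 3 lists takes no account of this sharing. Between lists called against the same IgG library, upstream minus downstream differed by 12.4 points (exact sign-flip p = 0.5, the smallest possible there).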
